A study of Mus musculus with 8 samples.

Results

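The oncofetal genes described here are 10 mouse genes of which several share a control by the let-7 microRNAs: Igf2bp1, Igf2bp2 and Igf2bp3, Lin28a and Lin28b, Hmga1 and Hmga2, and the imprinted genes H19, Igf2 and Dlk1. They were taken by gene name, 10 of the 55487 genes in the deposited tables. The set was selected on earlier results of these libraries, above all the measured difference in level between the PLA and PL lines, so its values in that comparison are a description with no test. The low-count filter passed 8 of the 10. Lin28a and H19 did not pass, and Dlk1 passed only through 1 line, PLA4, in which it was high.

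The study made bulk RNA-seq from 4 mouse cell lines of lung squamous cell carcinoma (LUSC) that came from genetically engineered mouse models, to see what goes with loss of the atypical chemokine receptor ACKR3. The lines PLA4 and PLA form one family and the lines PL12 and PL1 the other, with 2 libraries per line. The labels do not spell out the letters, name no engineered allele, strain, age or treatment, and do not say whether a line is 1 clone. Whether the libraries of a line represent separate cultures is also not given, and the p-values below therefore measure a spread that may be technical. Ackr3 checked the names: it had 0.387 and 0.228 CPM (counts scaled to a common library size) in PLA4 and 0.0487 and 0.0254 CPM in PLA, against 25.3 and 26.3 CPM in PL12 and 86.3 and 33.2 CPM in PL1. With 2 lines a family, a difference between PLA and PL lines cannot be told apart from other differences between these lines.

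Depth ran from 48857960 to 142458281 counts per library, which puts a floor of 3 counts at 0.0208 to 0.0614 CPM. All 12 squamous epithelial markers reached 1 CPM in every library, and their summed level was 25320 and 25600 CPM in PLA4, 18830 and 18400 CPM in PLA, 3711 and 3683 CPM in PL12, and 21790 and 12390 CPM in PL1. Markers of the cell cycle summed to 750.8 and 1308 CPM in PLA4 and to 188.7 and 186.2 CPM in PLA, against 2032 and 1811 CPM in PL12 and 1907 and 1174 CPM in PL1. The 12 immune markers summed to 51.0 and 10.8 CPM in PLA4, 199.5 and 190.9 CPM in PLA, 199.7 and 200.6 CPM in PL12, and 12.5 and 95.3 CPM in PL1, with between 2 and 5 of them at 1 CPM or more and Cd3d and Cd3e at 0. Most of that sum was Cd14, with 115 and 111 CPM in PLA and 175 and 180 CPM in PL12. Other myeloid markers went both ways. Itgam had 51.5 and 48.1 CPM and Cd68 29.0 and 27.2 CPM in PLA, and Csf1r had 12.3 and 11.1 CPM in PL12. Lyz2 had at most 0.0852 CPM and Adgre1 at most 0.0205 CPM in any library. The 8 alveolar markers summed to 15.9 and 7.29 CPM in PLA4, 103.3 and 100.3 CPM in PLA, 12.3 and 12.3 CPM in PL12, and 0.978 and 9.63 CPM in PL1, with Sftpa1 and Scgb1a1 at 0. Hopx made up 102 and 99.2 CPM in PLA. Nkx2-1 made up 8.861 and 8.685 CPM in PL12 and had at most 0.1935 CPM in a library of any other line. Endothelial markers summed to at most 2.44 CPM. Igf2bp2 and Hmga1 were higher in PLA than in PLA4, as the immune and alveolar sums were, and the part of other cell types in those values was not tested. The libraries of PLA4 and of PL1 stood apart from each other. Of 10739 genes that averaged at least 5 CPM, 10.3% differed over 2-fold between the libraries of PLA4 and 8.93% between those of PL1, against 0.0279% in PLA and 0.335% in PL12. In bulk samples, fewer cells that express a gene and less RNA per cell cannot be told apart.

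Let-7 microRNAs are low in the embryo and abundant in most adult tissues, where they repress a set of fetal messengers. The RNA-binding proteins LIN28A and LIN28B block the maturation of let-7, and messengers for LIN28B itself, for the IGF2BP proteins, which bind and stabilise messengers, and for HMGA2, an architectural protein that binds AT-rich DNA, are known let-7 targets. H19, Igf2 and Dlk1 are fetal imprinted genes that are mostly silenced after birth. In tumours, renewed expression of these genes is known as an oncofetal state.

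The pairing between let-7 and its targets is shown first. Igf2bp1 and Hmga2, the 2 of the 10 genes with the largest differences between the families, hold 4 let-7 sites each. Lin28b, whose levels overlapped between the families, holds 4 as well. A site here is the 7 bases CTACCTC, which pair with bases 2 to 8 of the microRNA, the seed. In the RefSeq entries searched (GRCm38.p6), 11 mature mouse microRNA names listed for 13 genes share that seed. Mirlet7a-2, a gene in the deposited tables, was not among those 13. A representative set is given 5′ to 3′ with the seed in capitals.
let-7a-5p: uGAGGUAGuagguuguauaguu
let-7g-5p: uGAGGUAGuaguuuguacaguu
miR-98-5p: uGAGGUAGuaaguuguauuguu

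The longest annotated 3′ UTR (GENCODE M21, GRCm38) was searched on the transcript strand alone. Igf2bp1, Hmga2 and Lin28b each held 4 sites, in UTRs of 6337, 3014 and 4445 bases. Lin28a held 2 sites, Igf2bp2, Igf2bp3 and Hmga1 held 1 each, and Igf2 and Dlk1 held none. Over all 20999 genes with an annotated 3′ UTR, 9.03% held at least 1 site, 1.08% at least 2 and 0.0571% (12 genes) at least 4. Each site is printed 5′ to 3′ on the transcript strand with 22 bases before it and 1 after it, and capitals mark the 7-base match. A match is a description of the letters and does not show that the site is used.

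The 4 sites of Igf2bp1 and the 4 of Hmga2 are shown because these genes had the largest differences between the families. They lie on the minus strands of chromosome 11 and of chromosome 10.
Igf2bp1, site 1, chr11:95961778-95961807: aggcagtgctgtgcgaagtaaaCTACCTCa
Igf2bp1, site 2, chr11:95959357-95959386: tgggaaccagcagtgctattaaCTACCTCa
Igf2bp1, site 3, chr11:95958763-95958792: actacgagtataaatggatgaaCTACCTCa
Igf2bp1, site 4, chr11:95958140-95958169: ctgtttcacttttggttttaatCTACCTCt
Hmga2, site 1, chr10:120364224-120364253: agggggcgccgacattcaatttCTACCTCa
Hmga2, site 2, chr10:120362987-120363016: caataatccccactcctcaataCTACCTCt
Hmga2, site 3, chr10:120362549-120362578: ggacttcctgatttgcaaggaaCTACCTCc
Hmga2, site 4, chr10:120361691-120361720: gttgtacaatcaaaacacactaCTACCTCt

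The single sites of their paralogues are shown as well, and the 4 sites of Lin28b are not printed. No link between site number and the difference between families is read from this choice. The single sites of Igf2bp2 and Igf2bp3 lie on the minus strand and that of Hmga1 on the plus strand.
Igf2bp2, chr16:22059473-22059502: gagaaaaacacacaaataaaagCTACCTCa
Igf2bp3, chr6:49086787-49086816: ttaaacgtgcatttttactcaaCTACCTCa
Hmga1, chr17:27563270-27563299: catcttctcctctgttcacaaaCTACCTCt

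Igf2bp1 (ENSMUSG00000013415.9, GRCm38 chr11:95957163-96005940, minus strand) encodes an RNA-binding protein of the embryo that shields bound messengers from decay. Its level was 0.0852 and 0.0692 CPM in PLA4 and 0.00812 and 0.0254 CPM in PLA, against 29.92 and 30.01 CPM in PL12 and 10.4 and 10.9 CPM in PL1. These are 11, 10, 1 and 3 counts in the libraries of the PLA lines, against 1462, 3265, 906 and 1234 counts in those of the PL lines. Every PLA library was near the floor of 3 counts, every PL library was well above it, and the libraries within each PL line differed little.

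The mean level of Igf2bp1 was 0.047 ± 0.0427 CPM over PLA4 and PLA and 20.3 ± 13.7 CPM over PL12 and PL1 (SD over n = 2 lines per family), which is 432-fold lower in the PLA lines. Leaving out any 1 library kept the fold between 396 and 476. By pairs of lines it was 388-fold lower in PLA4 than in PL12 and 138-fold lower in PLA4 than in PL1. PLA, with 4 counts in all, is too low for a stable fold of its own. In TPM, which scales by transcript length, its mean was 0.0725 over PLA4 and PLA and 5.83 over PL12 and PL1. The size of the fold depended on the scale, with a log2 ratio of -8.76 in CPM and -6.33 in TPM. Counts in the PLA lines were few, and the reason for the gap between the scales was not tested.

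Across all tested genes, 1.99% were called in every one of the 4 pairings of lines across the families (edgeR's quasi-likelihood test, Benjamini-Hochberg adjusted p under 0.05 with the same sign in each), with 0.767% lower and 1.23% higher in the PLA lines. Of the oncofetal genes only Igf2bp1 was called, as lower in the PLA lines, and nothing is read from that count because the genes were chosen with this comparison known. With the counts of each line summed, so that 2 lines stood against 2, edgeR called 0% of 18859 genes at the adjusted threshold, while 867 genes (4.6%) had an unadjusted p under 0.05 and DESeq2 called 354.

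**Figure D1:**
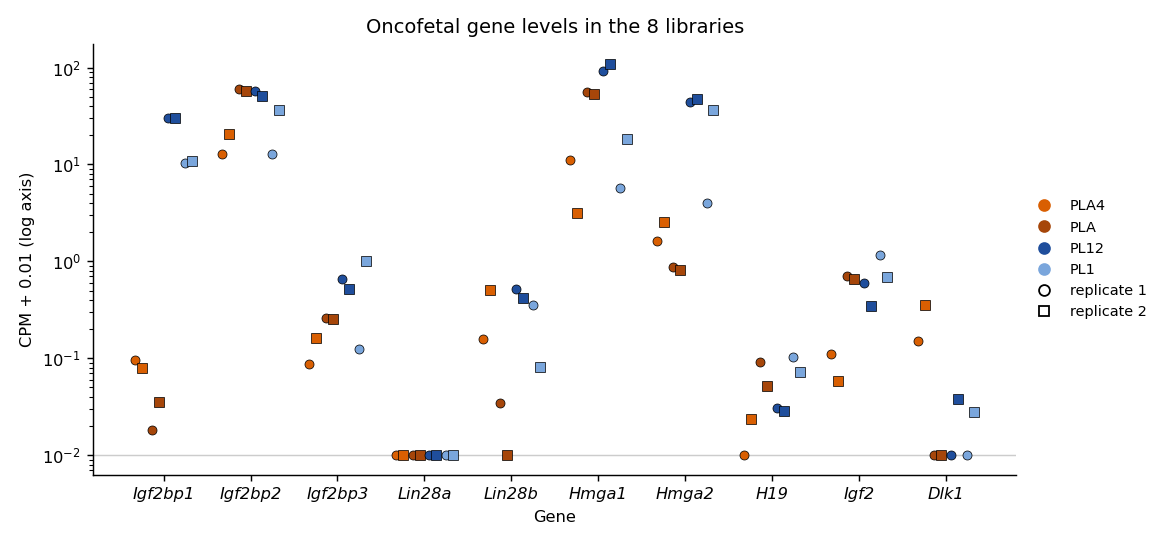
Level of the 10 oncofetal genes in each of the 8 libraries, in CPM + 0.01 on a log axis, with circles for replicate 1 and squares for replicate 2. Igf2bp1 and Hmga2 are the genes whose PLA4 and PLA libraries all lie below those of PL12 and PL1, Igf2bp2 shows no such order, and Lin28a lies at 0 everywhere.

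Igf2bp2 (ENSMUSG00000033581.17, chr16:22059009-22163299, minus strand), the paralogue that stays on in many adult tissues, had 12.7 and 20.6 CPM in PLA4 and 60.2 and 57.4 CPM in PLA, against 57.7 and 50.4 CPM in PL12 and 12.7 and 36.7 CPM in PL1. The families overlapped, with a high and a low line in each. The mean was 37.7 ± 29.8 CPM over PLA4 and PLA and 39.4 ± 20.7 CPM over PL12 and PL1 (SD over n = 2 lines per family), a log2 ratio of -0.06. Its sign turned without PLA4 replicate 1 (0.01), PL12 replicate 1 (0.01) or PL1 replicate 2 (0.18).

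Igf2bp3 (ENSMUSG00000029814.10, chr6:49085223-49214957, minus strand), an RNA-binding paralogue that many carcinomas express, was low in all lines. It had 0.0774 and 0.152 CPM in PLA4 and 0.252 and 0.245 CPM in PLA, against 0.655 and 0.505 CPM in PL12 and 0.115 and 0.987 CPM in PL1. Replicate 1 of PL1 lay within the range of the PLA lines, so the families overlapped. Its expected counts were not whole in any of the 8 libraries, and its 3′ end overlaps Malsu1 on the other strand, from which reads cannot be told apart because the library kit does not mark strand.

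On the TPM scale, which allows levels of different genes to be compared, Igf2bp2 made up most of the messenger of the 3 paralogues in every library. Igf2bp1 made up 2.57% and 0.421% of their summed TPM in PLA4 and 0.0726% and 0.303% in PLA, against 26.2% and 31.3% in PL12 and 28.3% and 12.5% in PL1. The summed TPM was 5.84 and 9.49 in PLA4, 27.6 and 26.4 in PLA, 33 and 32 in PL12, and 7.61 and 20.1 in PL1. The totals of the families overlapped, with PLA close to PL12, while the shares of Igf2bp1 did not overlap, as its levels already fix.

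**Figure D2:**
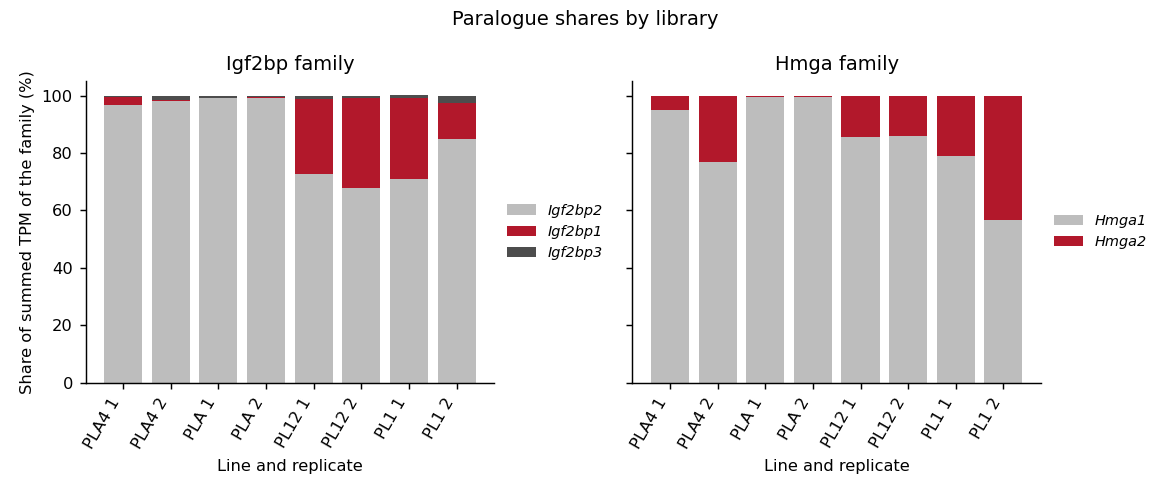
Share of each paralogue in the summed TPM of its family, in percent, for the Igf2bp genes (left) and for Hmga1 and Hmga2 (right), with 1 bar per library. Igf2bp1 takes 12.5% to 31.3% in the PL12 and PL1 libraries and at most 2.57% in those of PLA4 and PLA.

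Lin28a and Lin28b encode the proteins that block let-7 maturation. Lin28a (ENSMUSG00000050966.9, chr4:134003330-134018841, minus strand) had no count in any library. Lin28b (ENSMUSG00000063804.8, chr10:45376620-45486395, minus strand) had 0.147 and 0.492 CPM in PLA4 and 0.0244 and 0 CPM in PLA, against 0.512 and 0.414 CPM in PL12 and 0.345 and 0.0705 CPM in PL1. It stayed under 1 CPM throughout, PLA4 overlapped both PL lines, and PLA was at or below the floor with 3 and 0 counts.

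The table also held 12 genes of the let-7 and miR-98 family, and all 12 were at 0 in every library. Mature microRNAs are too short for this library method, so their level was not measured, and a 0 says nothing about them.

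Hmga2 (ENSMUSG00000056758.14, chr10:120361275-120476469, minus strand) had 1.62 and 2.56 CPM in PLA4 and 0.869 and 0.804 CPM in PLA, against 43.6 and 47.9 CPM in PL12 and 4.03 and 36.4 CPM in PL1. The families did not overlap, but the lowest PL library, replicate 1 of PL1, was close to the PLA4 libraries. The mean was 1.46 ± 0.884 CPM over PLA4 and PLA and 33.0 ± 18.1 CPM over PL12 and PL1 (SD over n = 2 lines per family), 22.6-fold lower in the PLA lines, and between 17-fold and 28.1-fold with any 1 library left out.

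Libraries of the families did not overlap in 15.7% of all tested genes, 7.18% with the PLA lines lower and 8.56% with them higher. Igf2bp1 and Hmga2 were the oncofetal genes among these, both lower in the PLA lines, and again nothing is read from their number. In PL1 the library with more Hmga2 also held more fibroblast marker messenger. The 12 fibroblast markers summed to 325.6 CPM in PL1 replicate 2, with 7 of them above 1 CPM, and to 9.41 CPM in replicate 1. They summed to 32.1 and 20.5 CPM in PLA4, 1.25 and 1.18 CPM in PLA, and 2.07 and 1.88 CPM in PL12, and Dpt was at 0 everywhere. The PL12 libraries, with the highest Hmga2, thus held hardly any of these markers, and the part of fibroblast messenger in the PL1 values was not tested. Part of the Hmga2 count was not whole in 6 libraries, and the antisense genes 1700006J14Rik and 9230105E05Rik overlap it.

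Hmga1 (ENSMUSG00000046711.16, chr17:27556497-27563674, plus strand), the paralogue that proliferating cells commonly express, had 10.98 and 3.16 CPM in PLA4 and 55.4 and 53.3 CPM in PLA, against 90.9 and 110 CPM in PL12 and 5.75 and 18.4 CPM in PL1. Each family held a high and a low line, and PL1 overlapped PLA4. A near-identical copy, Hmga1b, had 0.279 and 0.0831 CPM in PLA4 and 1.45 and 2.01 CPM in PLA, against 5.79 and 4.83 CPM in PL12 and 0.242 and 0.802 CPM in PL1. Reads are split between these copies by estimation, so the level of Hmga1 is uncertain to that extent.

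By TPM, Hmga2 made up 5.0% and 23.2% of the summed Hmga1 and Hmga2 messenger in PLA4 and 0.591% and 0.579% in PLA, against 14.4% and 14.0% in PL12 and 21.2% and 43.2% in PL1. This share overlapped between the families, and the highest share in a PLA line was in PLA4 replicate 2, the library with the least Hmga1.

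The imprinted genes were low or absent. H19 (ENSMUSG00000000031.16, chr7:142575529-142578143, minus strand), a fetal long noncoding RNA and host of miR-675, had between 0 and 10 counts in any library, with 17 counts over the PLA lines and 18 over the PL lines. Its highest levels were 0.0813 CPM in PLA replicate 1 and 0.0921 CPM in PL1 replicate 1. No difference between the families was detectable at this depth.

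Igf2 (ENSMUSG00000048583.16, chr7:142650766-142666816, minus strand), the fetal growth factor that signals through the IGF1 receptor, had 0.101 and 0.0485 CPM in PLA4 and 0.691 and 0.643 CPM in PLA, against 0.594 and 0.340 CPM in PL12 and 1.16 and 0.688 CPM in PL1. PLA4 was the lowest line, and PLA overlapped PL1. The antisense gene Igf2os overlaps Igf2 and had up to 0.587 CPM, in PL1 replicate 1, and without strand their reads cannot be told apart. The protein-coding gene Gm49394 also overlaps Igf2, by 16048 bases on the same strand. The expected counts of Igf2 were whole in every library.

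Dlk1 (ENSMUSG00000040856.17, chr12:109452823-109463336, plus strand) encodes a membrane relative of the Notch ligands that marks fetal and progenitor cells. It had 0.139 and 0.346 CPM in PLA4 and no count in PLA, against 0 and 0.0276 CPM in PL12 and 0 and 0.0176 CPM in PL1. The reads came almost only from PLA4, with 18 and 50 counts, and the families overlapped through PLA.

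Lines of the same family were then compared. The genes were selected above all on the other contrast, though earlier results of these lines were known as a whole. Between PLA4 and PLA, 29% of all tested genes were called, 14.1% higher and 14.9% lower in PLA4. Between PL12 and PL1, 23.7% were called, 11.2% higher and 12.5% lower in PL12. The test was edgeR's quasi-likelihood test on 2 libraries per line, and fold changes are log2 ± SE with adjusted p over all genes.

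In PLA4 compared with PLA, 6 of the 8 tested oncofetal genes were called, where 29% of all tested genes were. Here and below, the 6 include Dlk1, which passed the filter only through PLA4, and nothing is read from their number. Igf2bp2 fell by 1.82 ± 0.489 on the log2 scale in PLA4 (adjusted p = 0.0354), Hmga1 fell by 2.94 ± 0.725 (adjusted p = 0.0271) and Igf2 fell by 3.15 ± 0.567 (adjusted p = 0.0104). Dlk1 had 68 counts in PLA4 and 0 in PLA, at least 20-fold higher in PLA4 against a floor of 3 counts over the line. Because Dlk1 entered the test only through PLA4, its call is given without a p and supports nothing. Lin28b had 90 counts in PLA4 and 3 in PLA, a ratio of 26.4 with a 95% counting interval of 8.77 to 131 (adjusted p = 0.0428).

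Igf2bp1 was called higher in PLA4 than in PLA by 2.14 ± 0.42 (adjusted p = 0.0134), but on 21 counts in PLA4 and 4 in PLA, a ratio of 4.63 with a counting interval of 1.56 to 18.5. On the deposited TPM values the call was lost, with a log2 difference of 0.06 and an adjusted p of 0.794 by limma. Igf2bp3 (-1.10 ± 0.932, adjusted p = 0.409) and Hmga2 (1.32 ± 0.885, adjusted p = 0.303) did not pass. Leaving out 1 library ended several of these calls, in part with folds that hardly moved, since calls over all genes also dropped from 5414 to 1079 without PLA replicate 1 and to 1051 without PLA replicate 2. Without PLA replicate 1, 0 of the 6 were called, with log2 fold changes of -1.72 for Igf2bp2, -2.85 for Hmga1, -3.03 for Igf2 and 1.62 for Igf2bp1. Without PLA replicate 2 only Igf2bp1 was called. Without PLA4 replicate 2, Igf2bp1 and Igf2 were called, without PLA4 replicate 1 the call for Igf2bp2 was lost, and with either PL12 library left out those for Igf2bp2, Lin28b and Hmga1 were lost. On TPM the call for Lin28b was lost as well.

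In PL12 compared with PL1, 2 of the 8 tested oncofetal genes were called, where 23.7% of all tested genes were. Both were higher in PL12. Igf2bp1 rose by 1.49 ± 0.248 (adjusted p = 0.00989) and Hmga1 by 3.05 ± 0.727 (adjusted p = 0.029). Igf2bp2 (1.13 ± 0.48, adjusted p = 0.138), Hmga2 (1.18 ± 0.852, adjusted p = 0.355), Lin28b (1.16 ± 1.03, adjusted p = 0.446), Igf2 (-0.999 ± 0.517, adjusted p = 0.207) and Igf2bp3 (0.06 ± 0.89, adjusted p = 0.972) did not pass. With either PL12 library left out, neither gene was called, with log2 fold changes of 1.49 and 1.48 for Igf2bp1 and 3.18 and 2.91 for Hmga1, and the call for Hmga1 was also lost with either PLA library or PL1 replicate 1 left out.

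**Figure D3:**
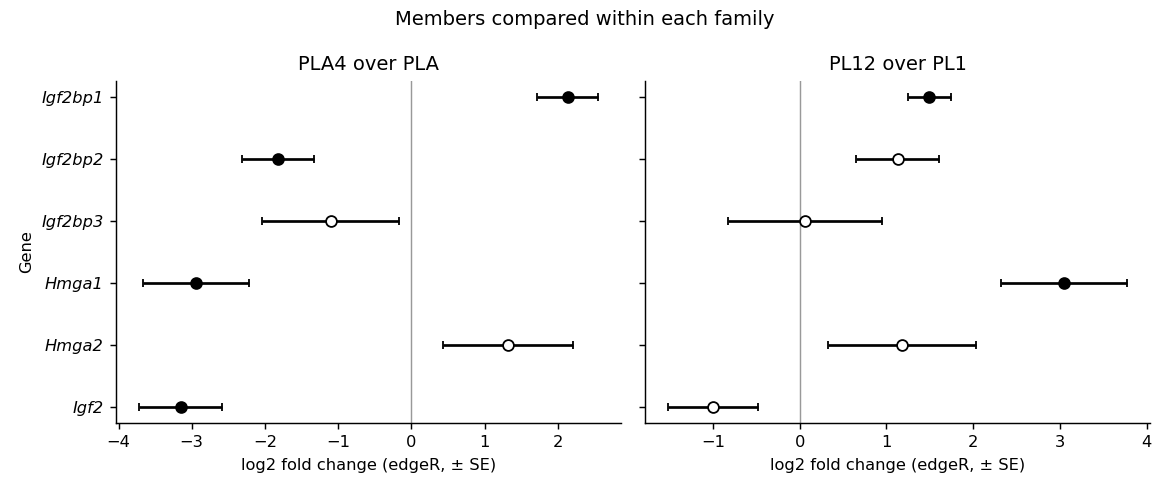
edgeR log2 fold change ± SE for PLA4 over PLA (left) and PL12 over PL1 (right), with filled circles where the adjusted p passed 0.05. Dlk1 and Lin28b are not drawn, because PLA had at most 3 counts of each. Hmga1 has a negative value in PLA4 over PLA (-2.94) and a positive one in PL12 over PL1 (3.05).

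The libraries of PL1 and of PLA4 differed in several oncofetal genes, whereas in PL12 and PLA those of Igf2bp2, Hmga1 and Hmga2 were within a ratio of 1.21. In PL1, replicate 2 over replicate 1 gave a ratio of 1.04 for Igf2bp1, 2.89 for Igf2bp2, 3.20 for Hmga1, 8.58 for Igf2bp3 and 9.04 for Hmga2. Lin28b went the other way in PL1 and was 4.89 times higher in replicate 1. In PLA4, Hmga1 was 3.48 times higher in replicate 1, whereas Igf2bp2, Hmga2 and Lin28b were 1.63, 1.58 and 3.34 times higher in replicate 2. A gap of over 4-fold, as that of Hmga2 in PL1, was found in 2.88% of the 10739 genes that averaged at least 5 CPM for PL1 and in 3.51% for PLA4. Igf2bp3 and Lin28b lie under that level, so the share does not apply to them.

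**Figure D4:**
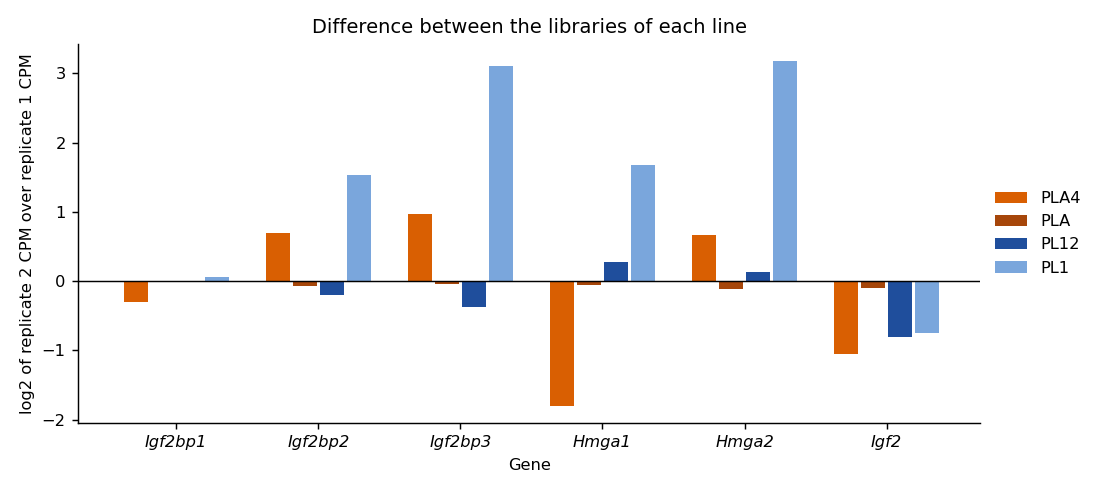
log2 of the CPM in replicate 2 over that in replicate 1, for 6 oncofetal genes in each line. The bar for Igf2bp1 in PLA is drawn at 0, because its libraries had at most 3 counts. In PL1 the bar of Hmga2 is the tallest, at a ratio of 9.04, and that of Igf2bp1 is close to 0.

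Among 10285 genes that had a plain symbol and averaged at least 5 CPM, those whose pattern was most like that of Igf2bp1 were ranked by the root mean square difference of log2(CPM + 1), centred on each gene's mean over the 8 libraries. The nearest were Etv4, an ETS family transcription factor (0.631), Areg, the EGF receptor ligand amphiregulin (0.793), Ctla2a, a cysteine protease inhibitor (0.853), Hmga2 itself (0.856), Il18rap, a subunit of the interleukin 18 receptor (0.885), and Igsf9b, a cell adhesion protein (0.945). Etv4 had 0.201 and 0.125 CPM in PLA4 and 0.877 and 0.770 CPM in PLA, against 17.3 and 20.1 CPM in PL12 and 10.2 and 5.24 CPM in PL1. Areg had 5.72 and 1.17 CPM in PLA4 and 11.4 and 11.6 CPM in PLA, against 170 and 173 CPM in PL12 and 43.5 and 60.6 CPM in PL1. Like Igf2bp1, both were highest in PL12, intermediate in PL1 and low in both PLA lines.

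The genes nearest to Hmga2 were Saa3, an acute phase protein (0.717), Ctla2a (0.736), Igsf9b (0.749), Igf2bp1 (0.856), Odc1, the enzyme that starts polyamine synthesis (0.928), and Syt7, a calcium sensor of vesicle fusion (0.940). Igf2bp1 and Hmga2 each had rank 4 from the other. Saa3 shared the gap between the PL1 libraries, with 0.138 CPM in replicate 1 and 6.17 CPM in replicate 2. The ranking rests on 8 libraries of 4 lines and is a description only.

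**Figure D5:**
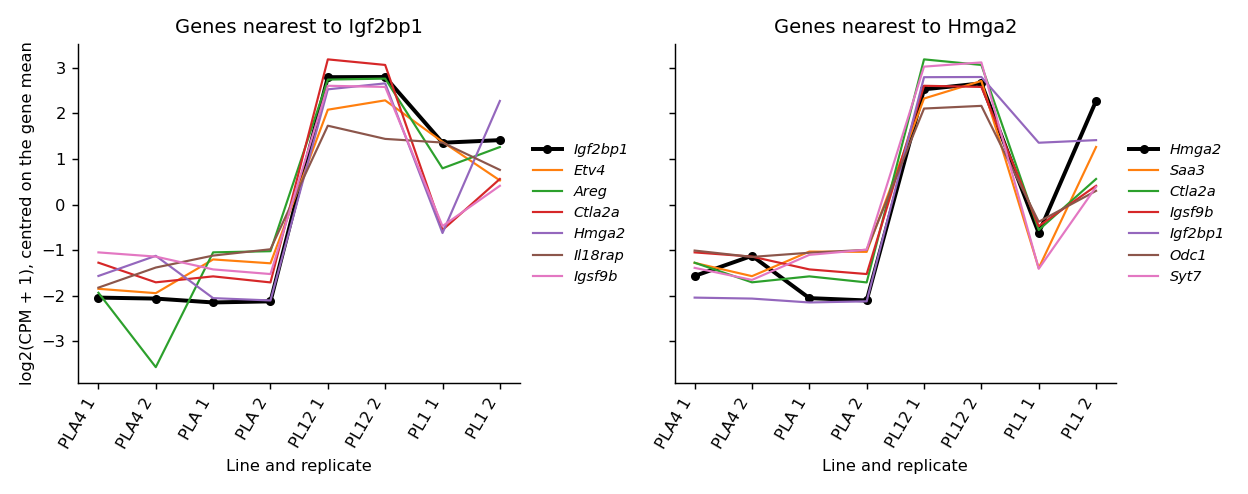
Centred log2(CPM + 1) of Igf2bp1 (left) and Hmga2 (right) as thick black lines, with the 6 genes of the most similar pattern, over the 8 libraries. All curves peak in the PL12 libraries. That of Hmga2 is far lower in PL1 replicate 1 than in PL1 replicate 2, whereas that of Igf2bp1 is nearly level between these libraries.

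The number of let-7 sites was set beside the difference between the families for the 14389 tested genes with an annotated 3′ UTR. Here and for the lists below, the ratio of a gene is the mean of its 4 edgeR log2 fold changes between lines of the families. The median log2 ratio of PLA over PL lines was 0.05 for 12926 genes with no site, 0.02 for 1277 with 1, 0.00 for 156 with 2 and 0.09 for 22 with 3 or more. The oncofetal genes were left out of these medians, because they were selected on this difference. The median UTR length over the same groups was 1030, 2177, 3500 and 4357 bases, so site number and UTR length went together. Among the 22, Tmem198b was called higher in the PLA lines in all 4 line comparisons and none was called lower. Over all tested genes, 1.23% were called higher and 0.767% lower. Nr6a1, a nuclear receptor of germ cells and the gene with the largest number of sites (8), had log2 fold changes of 0.74 in PLA over PL12, 0.38 in PLA over PL1, 0.56 in PLA4 over PL12 and 0.20 in PLA4 over PL1. Lin28b, with 4 sites, had log2 fold changes of -5.10 in PLA over PL12, -3.93 in PLA over PL1, -0.52 in PLA4 over PL12 and 0.64 in PLA4 over PL1.

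Other genes of the pathway were taken from lists and described by counts, beside medians over all 18648 tested genes of 0.02 for PLA over PL lines. The lists were chosen with earlier results of these data known, so their calls and medians between the families are a description only. Of 19 tested genes of let-7 processing and silencing, none was called in all 4 line comparisons, where 1.99% of all tested genes were. With so low a share, nothing is read from a list of this size with none called. The median log2 ratio of the 19 genes was -0.04. In PLA4 compared with PLA, 5 rose and 1 fell, where 14.1% of all tested genes rose and 14.9% fell. Tut4, the terminal uridylyl transferase that works with LIN28, had 8.20 and 10.9 CPM in PLA4 and 45.4 and 46.4 CPM in PLA, and fell by 2.26 ± 0.429 in PLA4 (adjusted p = 0.0121). Drosha, the nuclease that opens microRNA precursors, had 120 and 112 CPM in PLA4 and 60.03 and 61.01 CPM in PLA and rose by 0.94 ± 0.155 (adjusted p = 0.00795). In PL12 compared with PL1, 1 rose and 4 fell, where 11.2% of all tested genes rose and 12.5% fell, among them Dis3l2, the exonuclease that degrades uridylated pre-let-7, with 16.9 and 14.8 CPM in PL12 and 41.9 and 36.3 CPM in PL1 (-1.30 ± 0.143, adjusted p = 0.003). The calls for Tut4 and Drosha were lost with either PLA library left out.

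Of 42 tested genes on the list of let-7 targets other than the oncofetal genes, none was called higher and 2 were called lower in the PLA lines in all 4 comparisons, where 1.23% of all tested genes were called higher and 0.767% lower. The median log2 ratio was -0.53, and it was positive for 10. Rrm2, a subunit of ribonucleotide reductase and an S phase gene, had 41.4 and 61.7 CPM in PLA4 and 51.2 and 51.2 CPM in PLA, against 226 and 212 CPM in PL12 and 189 and 127 CPM in PL1 (largest of the 4 adjusted p-values 0.0206). Ddx19a, an RNA helicase of mRNA export, had 43.4 and 47.8 CPM in PLA4 and 51.2 and 50.5 CPM in PLA, against 68.4 and 70.0 CPM in PL12 and 78.0 and 65.9 CPM in PL1 (largest adjusted p 0.0319). Both calls were lost with any 1 library of PLA or of PL12 left out, and that of Ddx19a also without PLA4 replicate 1, without PL1 replicate 1 or with no low-count filter. Several listed targets, Rrm2, Dna2 and Aurkb among them, act in the cell cycle, whose markers summed lowest in PLA, and the part of the cell cycle in these values was not tested.

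Within families, 8 targets rose and 5 fell in PLA4 compared with PLA, where 29% of all tested genes were called, and 8 rose and 5 fell in PL12 compared with PL1, where 23.7% were. Dna2, a nuclease and helicase of DNA replication, rose by 3.27 ± 0.333 in PLA4 (adjusted p = 0.00217), with 6.60 and 11.6 CPM in PLA4 and 0.788 and 1.09 CPM in PLA. Aurkb, the mitotic kinase, rose by 2.00 ± 0.272 in PLA4 (adjusted p = 0.00447). Ccnd2, a D-type cyclin, had 352 and 320 CPM in PL12 and 951 and 1724 CPM in PL1 (-1.99 ± 0.452, adjusted p = 0.0249), a call lost with any 1 library of PL12 or PLA, or PL1 replicate 2, left out.

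Of 13 tested genes of the IGF axis, none was called in all 4 comparisons, beside 1.99% of all tested genes. The median log2 ratio was 0.89, with 11 positive. Igf1r, the receptor through which IGF2 signals, had 454 and 438 CPM in PLA4 and 493 and 548 CPM in PLA, against 214 and 208 CPM in PL12 and 831 and 821 CPM in PL1. PL12, the line with the most Igf2bp1, had the least Igf1r, but PL1, the next in Igf2bp1, had the most Igf1r. Igf1r fell by 1.97 ± 0.133 in PL12 compared with PL1 (adjusted p = 0.000848). Igfbp3, a secreted IGF-binding protein, fell by 2.05 ± 0.302 in PL12 (adjusted p = 0.00692), with 506 and 509 CPM in PL12 and 2342 and 1865 CPM in PL1, a call lost with either PL12 library left out. Igfbp2, another IGF-binding protein, had 36.1 and 795.5 CPM in PLA4 and 4.70 and 4.17 CPM in PLA (6.55 ± 1.91, adjusted p = 0.0451), and without PLA4 replicate 2 its log2 fold change was 3.09. The call for Igfbp2 was lost there, with any 1 library of PLA or PL12 left out and on TPM.

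Of 24 tested imprinted genes, 2 were called higher in the PLA lines in all 4 comparisons and none lower, beside 1.23% and 0.767% of all tested genes, while the median log2 ratio of the list was -1.25. Zrsr1, a retrotransposed relative of a splicing factor gene, had 19.6 and 20.4 CPM in PLA4 and 23.7 and 21.6 CPM in PLA, against 5.67 and 5.32 CPM in PL12 and 4.34 and 8.89 CPM in PL1 (largest adjusted p 0.0371). Impact, a regulator of the kinase GCN2, had 40.8 and 52.3 CPM in PLA4 and 39.5 and 40.1 CPM in PLA, against 21.7 and 20.8 CPM in PL12 and 16.4 and 20.8 CPM in PL1 (largest adjusted p 0.0138). Both calls were lost with any 1 library of PLA or of PL12 left out, and that of Zrsr1 also with either PLA4 library left out and on TPM. In PLA4 compared with PLA, 5 rose and 4 fell, and in PL12 compared with PL1, 5 rose and none fell, against the shares of all genes given above for each direction. Cd81, a tetraspanin of the cell surface, had 467 and 439 CPM in PL12 and 204 and 200 CPM in PL1 and rose by 1.17 ± 0.135 in PL12 (adjusted p = 0.00348). Peg13, a noncoding RNA, had 59.0 and 47.3 CPM in PLA4 and 18.9 and 19.5 CPM in PLA and rose by 1.47 ± 0.415 in PLA4 (adjusted p = 0.0411), a call lost with any 1 library of PLA4, PLA or PL12 left out. Plagl1, a zinc finger factor that regulates other imprinted genes, rose by 2.72 ± 0.819 in PLA4 compared with PLA (adjusted p = 0.0497), with 63.4 and 372 CPM in PLA4 and 31.5 and 34.5 CPM in PLA, and the call was lost on TPM and with PLA4 replicate 2, PL1 replicate 1 or any 1 library of PLA or PL12 left out.

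Of 20 tested genes known as oncofetal in other settings, none was called in all 4 comparisons, beside 1.99% of all tested genes. The median log2 ratio was -0.31. Cldn6, an embryonic tight junction protein, was high in 1 line alone, with 0.317 and 0.00692 CPM in PLA4 and 0 in both PLA libraries, against 242 and 257 CPM in PL12 and 0.138 and 0.0617 CPM in PL1. It was higher in PL12 than in PL1 by 11.3 ± 1.28 (adjusted p = 0.00511). Ptn, the growth factor pleiotrophin, was high in 1 line of each family, with 35.2 and 143 CPM in PLA4 and 1.96 and 1.88 CPM in PLA, against 1.66 and 2.12 CPM in PL12 and 41.4 and 18.1 CPM in PL1. It rose by 5.53 ± 0.792 in PLA4 compared with PLA (adjusted p = 0.00524), a call lost with either PLA library left out. Sox11, a transcription factor of embryonic neurons, rose by 2.02 ± 0.36 in PLA4 (adjusted p = 0.0101), also lost with either PLA library left out.

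Of 21 tested messengers reported to be bound by IGF2BP1 in other cells, none was called in all 4 comparisons. The share over all tested genes was 1.99%, so nothing is read from that 0. The median log2 ratio was -0.30. Ptgs2, the inducible cyclooxygenase, had 29.7 and 42.9 CPM in PLA4 and 215 and 210 CPM in PLA, against 1036 and 890 CPM in PL12 and 212 and 525 CPM in PL1, and fell by 2.55 ± 0.435 in PLA4 compared with PLA (adjusted p = 0.00878). Hspb1, a small heat shock protein, had 95.4 and 31.8 CPM in PLA4 and 0.577 and 0.330 CPM in PLA, against 52.0 and 64.9 CPM in PL12 and 5.65 and 2.93 CPM in PL1. It rose by 7.13 ± 0.739 in PLA4 compared with PLA (adjusted p = 0.00223). Foxm1, a transcription factor of mitosis, rose by 2.46 ± 0.461 in PLA4 (adjusted p = 0.0117). The calls for Ptgs2 and Foxm1 were lost with either PLA library left out.

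Of 25 tested genes for other RNA-binding and high-mobility-group proteins, none was called in all 4 comparisons, beside 1.99% of all tested genes. The median log2 ratio was -0.39. In PLA4 compared with PLA, 6 rose and none fell, where 14.1% of all tested genes rose and 14.9% fell. Celf2, a splicing and stability factor, rose by 8.05 ± 0.769 (adjusted p = 0.00181), with 64.9 and 96.0 CPM in PLA4 and 0.325 and 0.279 CPM in PLA. PLA stood alone in this, since PL12 had 70.3 and 62.9 CPM and PL1 87.4 and 23.2 CPM. Hmgb2, a chromatin protein of dividing cells, rose by 1.43 ± 0.327 in PLA4 (adjusted p = 0.0214), and Hmgn2, which binds nucleosomes, fell by 1.56 ± 0.323 in PL12 compared with PL1 (adjusted p = 0.0189). Both of these calls were lost with any 1 library of PLA or of PL12 left out.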

How the data were processed

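Bulk RNA-seq of 4 mouse LUSC lines with 2 libraries each was analysed. Per the labels' protocols, RNA came from an RNeasy column kit, cDNA from SMARTer PCR synthesis and libraries from Nextera XT, which marks no strand. The authors deposited a table of expected counts and 1 of TPM per gene, as the file headers name them. The submitters' processing notes list the tools FastQC, STAR, RSEM and DESeq2 and the build GRCm38. Their versions and the annotation release are not given in the sources used here. Of the deposited expected counts, 14.2% were not whole, and they were rounded before testing.

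The line fit used edgeR 4.0.16 (limma 3.58.1, R 4.3.3) on all 8 libraries with 1 mean per line, TMM scaling and filterByExpr (minimum count 10, minimum total 15), which left 18648 genes. A gene counts as called between families where the Benjamini-Hochberg adjusted p is under 0.05 with the same sign in all 4 pairings of lines across the families. Counts summed per line were tested on 18859 genes. CPM uses TMM library sizes, and a line mean is the mean of its libraries. For single genes, log2 ratios of PLA over PL lines are of means of line means. Medians and counts of positive values over lists, site groups and all tested genes use another measure. It is each gene's mean of the 4 edgeR log2 fold changes between lines of the families. Depth and floors are given with the levels. Intervals (95%, exact binomial on summed counts) and floors cover counting error only. Alternatives were DESeq2 1.42.0 and its size factors, no filter, the deposited TPM on log2(TPM + 1) or log2(TPM + 0.1) with limma, a replicate block, libraries left out, and 6-base let-7 sites. The tests were checked on simulated data.

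Sites were read from GENCODE M21 transcripts on GRCm38, with which all 10 gene identifiers matched. The genes and the lists were chosen with earlier results of these data known. Other genes are named by rule: those called in all 4 comparisons, then up to 4 per list, of which the first 3 by fold change are given, called within a family with a mean of at least 5 CPM, and the 6 nearest in pattern to Igf2bp1 and to Hmga2. Nr6a1, Tmem198b, the overlapping genes and Hmga1b were added after their values were seen. The let-7 target list holds Imp3, a nucleolar gene that shares a former name of Igf2bp3.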

Additional observations from a re-analysis of the deposited data

How the results depend on the processing

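The fit of the 8 libraries was repeated under 16 alternatives. As a description, the mean of the 4 log2 fold changes of Igf2bp1 between families ran from -9.40 to -2.45 over them. Replicate numbers did not pair the libraries, since correlations of replicate differences between lines ran from -0.219 to 0.0176. Counts of calls moved widely. The 372 genes called in all 4 comparisons became 861 by DESeq2, 132 with the replicate block, 2446 without PL1 replicate 1 and PLA4 replicate 2, 2072 without PL1 replicate 2 and PLA4 replicate 1, and 36 to 763 with 1 library left out. The oncofetal genes among them became 2 with no low-count filter, 2 by DESeq2, 3 and 2 with the same pairs left out, and 1 to 2 with 1 library left out. For PL12 over PL1, the 4419 genes became 10066 and 9927 with those pairs left out and 763 to 6128 with 1 library left out. The 2 oncofetal genes among them became 1 with the replicate block, 5 and 6 with the pairs left out and 0 to 4 with 1 library left out. For PLA4 over PLA, the 5414 genes became 10733 and 10981 with the pairs left out and 1051 to 6618 with 1 library left out, and the 6 oncofetal genes 0 to 7. Fewer libraries leave fewer residual degrees of freedom, and the pairs left out are those that differed most between libraries of a line. With the replicate block, the adjusted p was 0.0561 for Hmga1 in PL12 over PL1, 0.0532 for Hmga1 in PLA4 over PLA and 0.0668 for Lin28b in PLA4 over PLA. The block also ended the calls for Rrm2 (0.0515), Ddx19a (0.0697) and Zrsr1 (0.0676) between families and for Igfbp2 (0.0885) and Plagl1 (0.0912) in PLA4 over PLA. On summed counts, the 0 genes became 1 with no filter and 354 by DESeq2, and stayed at 0 with any 1 line left out.

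Directions turned only for values that were not called. The mean of the 4 log2 fold changes of Dlk1 between families was 0.23, and it ran from -0.19 to 2.25 with 1 library left out and was -0.58 without PL1 replicate 1 and PLA4 replicate 2. That of Igf2bp2 was -0.22, and it ran from -0.50 to 0.23 with 1 library left out and was 0.41 without PL1 replicate 2 and PLA4 replicate 1. In PL12 over PL1, Igf2bp3 had 0.06, and -0.78 to 2.32 with 1 library left out and -0.77 without PL1 replicate 1 and PLA4 replicate 2. There Dlk1 had 0.79, on 3 counts in PL12 and 2 in PL1, and -3.24 to 4.06 with 1 library left out. With 6-base sites, Hmga2 held 7, Igf2bp1 6 and Lin28b 5. Igf2bp2 and Lin28a held 2 each, and Hmga1, Igf2bp3, Igf2 and Dlk1 held 1 each. Depth limits Lin28b, H19, Igf2, Dlk1 and Igf2bp3, which stayed near or under 1 CPM.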
